A study of Mus musculus with 8 samples.

Results

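Of the 23343 genes in the gene tables, 10 were followed here, chosen by name for their place in the sperm acrosome or in fusion of sperm and egg: Acr, Acrbp, Acrv1, Spaca1, Spaca3, Zpbp, Zpbp2, Spam1, Izumo1 and Dpy19l2. RNA was measured in pachytene spermatocytes (PS) and in their postmeiotic descendants, round spermatids (RS), of Rnf8;Scml2-dKO mice, which lack both Rnf8, a ubiquitin ligase of the DNA damage response, and Scml2, a germline Polycomb protein. H3K27ac, an acetylation of histone H3 found at active promoters and enhancers, was mapped by ChIP-seq in the same cell types from wild-type mice. All mice were adult C57BL/6, each group had 2 samples, and 8 samples were measured in all. The cells were sedimented from testis through a BSA gradient, and dKO cells were prepared at a scale that uses a single male. The RNA and the H3K27ac values thus come from different genotypes and different mice. No wild-type RNA was analysed here, so no value below compares genotypes.

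The acrosome is a secretory vesicle that forms from the Golgi apparatus over the nucleus of the round spermatid, spreads into a cap, and releases its enzymes when the sperm meets the coat of the egg. Some of its components are made already in spermatocytes, before the vesicle is seen, and others only after meiosis. The 10 genes cover its contents (the protease acrosin, its binding partner and the matrix proteins), its membrane, its attachment to the nucleus, and the surface proteins that open the way to the egg and fuse with it. All 10 lie on autosomes, chromosomes 4, 6, 7, 9, 11 and 15. The start site of a gene below is the RefSeq transcript start in the deposited gene tables, in mm10.

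The promoters of 7 of the genes are shown first. Whether these sequences bear on the RNA or H3K27ac values was not tested. Spam1, Acrv1, Spaca3, Izumo1 and Spaca1 had more RNA in RS than in PS, and Zpbp2 and Dpy19l2 had less H3K27ac in RS without a called change of RNA. Each run holds the 250 bases before the start site, 5′ to 3′ on the strand of the gene, from RefSeq (GRCm38.p6, the same assembly as mm10). They lie at chr6:24790938-24791187 on the plus strand for Spam1, chr9:36692970-36693219 on the plus strand for Acrv1, chr11:80858139-80858388 on the plus strand for Spaca3, chr7:45621561-45621810 on the plus strand for Izumo1, chr4:34050068-34050317 on the minus strand for Spaca1, chr11:98550847-98551096 on the plus strand for Zpbp2 and chr9:24696294-24696543 on the minus strand for Dpy19l2. The RefSeq start of Spam1 stands 11 bases from the start in the files, and the others match it. Capitals mark the motifs searched for.
Spam1: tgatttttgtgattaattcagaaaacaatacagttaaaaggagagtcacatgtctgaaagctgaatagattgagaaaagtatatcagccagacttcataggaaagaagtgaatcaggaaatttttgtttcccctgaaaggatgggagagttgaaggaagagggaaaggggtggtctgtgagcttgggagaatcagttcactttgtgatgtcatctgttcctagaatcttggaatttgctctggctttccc
Acrv1: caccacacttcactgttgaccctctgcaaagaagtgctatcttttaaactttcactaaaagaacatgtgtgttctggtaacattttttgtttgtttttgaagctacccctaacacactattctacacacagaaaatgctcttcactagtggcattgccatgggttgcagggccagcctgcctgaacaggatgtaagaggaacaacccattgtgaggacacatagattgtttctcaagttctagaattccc
Spaca3: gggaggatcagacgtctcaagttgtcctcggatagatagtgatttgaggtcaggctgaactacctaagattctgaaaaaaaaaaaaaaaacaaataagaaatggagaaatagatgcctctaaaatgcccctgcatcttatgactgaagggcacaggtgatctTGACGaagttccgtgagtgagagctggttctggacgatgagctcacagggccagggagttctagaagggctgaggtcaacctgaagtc
Izumo1: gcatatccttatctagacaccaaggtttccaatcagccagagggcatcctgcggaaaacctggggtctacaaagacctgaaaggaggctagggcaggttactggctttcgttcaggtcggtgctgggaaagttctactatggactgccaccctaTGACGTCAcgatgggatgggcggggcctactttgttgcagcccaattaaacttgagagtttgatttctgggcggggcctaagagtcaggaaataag
Spaca1: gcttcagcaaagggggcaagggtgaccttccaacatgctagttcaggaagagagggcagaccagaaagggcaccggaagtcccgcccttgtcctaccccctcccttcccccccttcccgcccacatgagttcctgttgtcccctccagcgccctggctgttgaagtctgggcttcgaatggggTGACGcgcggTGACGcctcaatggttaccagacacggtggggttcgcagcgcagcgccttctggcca
Zpbp2: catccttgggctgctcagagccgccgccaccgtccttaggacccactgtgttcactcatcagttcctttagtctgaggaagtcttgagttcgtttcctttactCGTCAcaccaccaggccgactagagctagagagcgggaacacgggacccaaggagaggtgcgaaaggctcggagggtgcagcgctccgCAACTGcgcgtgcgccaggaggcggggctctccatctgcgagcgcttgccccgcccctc
Dpy19l2: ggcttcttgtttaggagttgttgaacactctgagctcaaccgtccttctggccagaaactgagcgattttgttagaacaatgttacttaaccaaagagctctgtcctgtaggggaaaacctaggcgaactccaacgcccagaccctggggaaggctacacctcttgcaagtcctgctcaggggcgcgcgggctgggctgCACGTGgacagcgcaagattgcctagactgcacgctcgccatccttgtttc

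The motifs were chosen after the values had been seen and were searched on both strands: the cAMP response element TGACGTCA and its shorter core TGACG, which lies within it, the MYB motif CAACTG, the E-box CACGTG, the X-box arm GTTGCC and the TATA box TATAAA. Of the 10 genes, 9 had a promoter in the RefSeq table used (Acr did not). TGACG was found in 5 of these 9, in Izumo1, Spaca1, Spaca3, Acrbp and Zpbp2, against 17.8% of all 32851 promoters of this length. The full element TGACGTCA was found only in Izumo1 among the 9, from base -96 to -89, against 1.55% of all promoters. Spaca1 held TGACG at 2 places, from -67 to -63 and from -57 to -53. Dpy19l2 held CACGTG, which is in 6.02% of all promoters, and Zpbp2 held CAACTG, which is in 11.1%. Acrbp held GTTGCC on the opposite strand, from -199 to -194, which is in 10.4% of all promoters. No TATAAA was found in any of the 9, against 12.4% of all. The promoters also differed in base composition. Spam1 and Acrv1 held 0 CpG in their 250 bases, as did 7.87% of all promoters, while Zpbp2 held 19 and Spaca1 held 13. The median was 7 CpG for the 9 promoters and 6 for all promoters.

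The libraries are described in brief. The RNA samples held 9655405 to 12289694 reads on genes, and the 10 genes together took 0.167% and 0.181% of the reads in PS and 0.239% and 0.26% in RS. The markers of RS (10 of 10 detected, Prm1, Prm2, Tnp1 and Tnp2 among them) summed to 591 and 954 RPKM in the PS samples and to 15718 and 16446 RPKM in the RS samples. RPKM is the read count scaled for transcript length and sequencing depth, as the authors deposited it. The 10 markers of PS summed to 1689 and 1580 RPKM in PS and to 683 and 765 RPKM in RS. Hspa2 was the largest part, at 796 and 771 RPKM in PS and 479 and 474 RPKM in RS. Dmc1 went the other way, at 3.28 and 3.93 RPKM in PS and 9.69 and 9.41 RPKM in RS. Sycp1 and Meiob overlapped between the stages, and the other markers of PS, Sycp3 and Piwil1 among them, were higher in both PS samples. Of other cell types, the 5 Leydig cell markers summed to 727 and 546 RPKM in PS and to 68.0 and 42.4 RPKM in RS, mostly Insl3, and those of spermatogonia, Sertoli cells, peritubular cells and blood to 0.382 to 72.8 RPKM, with the blood markers Hbb-b1 and Hba-a1 at 0 throughout. Rnf8 had 93 and 110 reads in PS and 61 and 50 in RS, and Scml2 had 40 and 92 in PS and 44 and 98 in RS; without wild-type RNA these levels do not check the labels. In bulk samples, fewer cells of a type and less RNA per cell cannot be told apart. The H3K27ac lists held 41095 and 49434 intervals in PS and 74919 and 45863 in RS.

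RNA of the 10 genes was compared between dKO PS and RS to ask when in spermatogenesis each is made. The genes fell into those with several times more RNA in RS and those already abundant in PS. Spaca1, Spam1, Izumo1, Acrv1 and Spaca3 rose 6.84-fold to 8.40-fold, and none of the 10 fell, at an adjusted p of at most 0.05 and a change of at least 1.5-fold. Across all 14647 genes tested, 30.4% were called higher in RS and 27.6% lower. The median log2 fold change was 1.58 over the 10 genes and 0.01 over all genes tested.

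**Figure D1:**
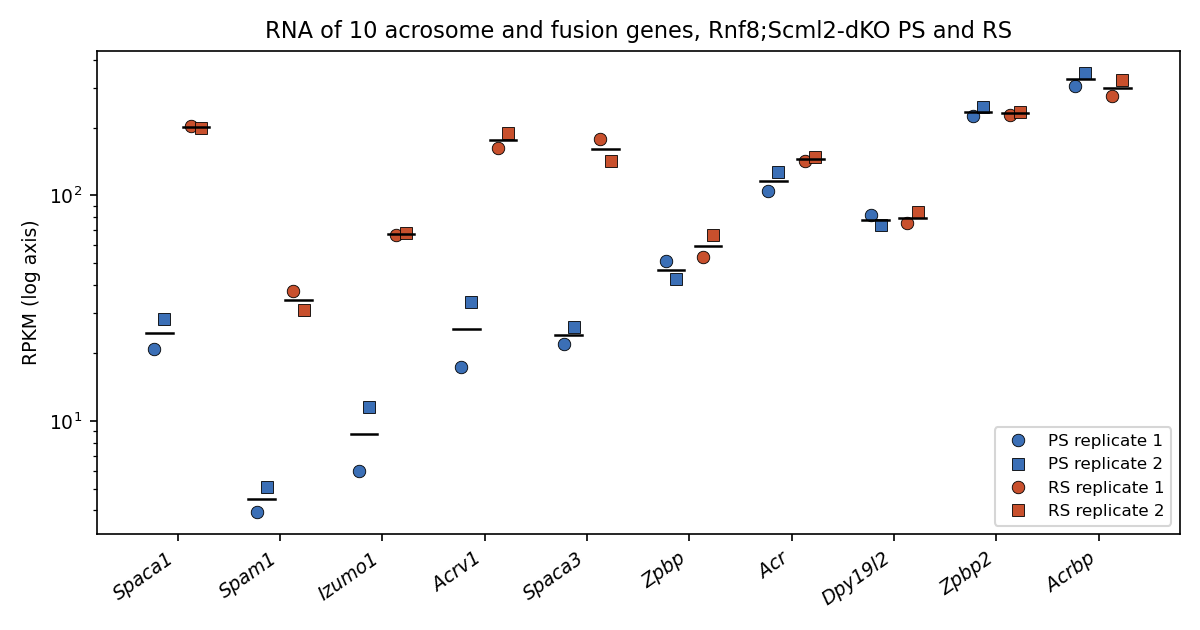
RPKM on a log axis for each of the 10 genes in the 4 dKO RNA samples, with PS in blue and RS in orange, replicates by shape, and a line at the mean of each pair. The 5 genes at the left have RS samples far above both PS samples, while Acrbp, Zpbp2 and Dpy19l2 at the right overlap between stages.

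Spaca1, a protein of the acrosomal membrane needed for the shape of the acrosome, had 20.8 and 28.4 RPKM in PS and 204.0 and 198.7 RPKM in RS. Its log2 fold change was 3.07 ± 0.18 (SE, n = 2 per stage; edgeR's quasi-likelihood test, adjusted p = 4.62e-06). The RS samples stood close together and far above both PS samples. Spaca3, a lysozyme-like protein of the acrosome, had 22.0 and 26.1 RPKM in PS and 177.5 and 142.6 RPKM in RS, a log2 fold change of 2.77 ± 0.18 (edgeR, adjusted p = 6.26e-06). Acrv1, also called SP-10, a matrix protein of the acrosome, had 17.3 and 33.5 RPKM in PS and 163.1 and 189.8 RPKM in RS. Its PS samples differed by more than those of Spaca1 or Spaca3, and its log2 fold change was 2.83 ± 0.28 (edgeR, adjusted p = 5.04e-05).

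The genes of the sperm surface showed the same size of change at lower levels. Spam1, the membrane-bound hyaluronidase PH-20 with which sperm pass the cells around the egg, had 3.93 and 5.07 RPKM in PS, from 93 and 117 reads, and 37.9 and 30.9 RPKM in RS, from 1110 and 762 reads. It was the lowest of the 10 genes in both stages, and its log2 fold change was 2.99 ± 0.21 (edgeR, adjusted p = 7.74e-06). Izumo1, the sperm protein that binds Juno on the egg before fusion, had 5.99 and 11.5 RPKM in PS and 66.8 and 68.2 RPKM in RS. The change was 2.98 ± 0.27 (log2; edgeR, adjusted p = 3.11e-05), and its RS samples differed far less than its PS samples. The calls of all 5 genes held in each of the 12 alternative fits, those without a library included.

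In these 5 genes PS replicate 2 stood above PS replicate 1, by 1.19 to 1.94 times. PS replicate 1 reached 8.88% to 13.7% of the RS mean and PS replicate 2 reached 14.1% to 19.0%. The 10 RS markers stood at 2.49% to 9.75% of their RS mean in PS replicate 1 and at 4.60% to 9.19% in PS replicate 2, and replicate 2 over replicate 1 was 0.922 to 1.98 times. The part of RS transcripts in the PS samples in these levels was not tested.

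The other 5 genes were expressed in PS at levels close to those in RS. Acrbp, which binds the inactive precursor of acrosin, was the highest of the 10 in both stages, with 307.2 and 350.6 RPKM in PS and 275.1 and 325.5 RPKM in RS. Its samples overlapped between stages (log2 fold change -0.13 ± 0.14; edgeR, adjusted p = 0.434). Zpbp2, a zona pellucida binding protein of the acrosomal matrix, came next, with 224.8 and 246.0 RPKM in PS and 227.5 and 235.7 RPKM in RS (0.05 ± 0.12; edgeR, adjusted p = 0.737). Dpy19l2, the inner nuclear membrane protein that anchors the acrosome to the nucleus, had 81.9 and 73.6 RPKM in PS and 75.3 and 84.2 RPKM in RS (0.08 ± 0.12; edgeR, adjusted p = 0.59). These 3 genes overlapped between PS and RS and did not pass the test.

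Acr and Zpbp lay between these patterns. Acr, the protease acrosin, had 104.5 and 126.7 RPKM in PS and 142.0 and 148.0 RPKM in RS, and Zpbp, the paralog of Zpbp2, had 51.1 and 42.6 RPKM in PS and 53.5 and 66.4 RPKM in RS. In both genes the RS samples stood above the PS samples, at 1.29-fold for Acr (edgeR, adjusted p = 0.0455) and 1.31-fold for Zpbp (edgeR, adjusted p = 0.0415), which is under the 1.5-fold that a call required. Without RS replicate 1 Zpbp passed that limit. In all, 7 of the 10 genes had both RS samples above both PS samples and 0 had them below, where 40.9% of all genes tested were above and 42.7% below.

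The order of the genes changed with the stage. In PS the mean RPKM ran from 4.50 (Spam1) to 328.9 (Acrbp), a range of 73.1 times, and in RS from 34.4 (Spam1) to 300.3 (Acrbp), a range of 8.74 times. Acrbp and Zpbp2 were first and second in both stages. In PS, Acrv1, Spaca1 and Spaca3 stood sixth, seventh and eighth, and their samples overlapped. In RS these genes followed Zpbp2 and stood above Acr, with Spaca1 apart from Acrv1, and with the samples of Spaca3 overlapping those of its neighbours Acrv1 and Acr. No other neighbours in either order overlapped.

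H3K27ac at the start sites of the same genes was compared between wild-type PS and RS. The value of a gene was the highest fold enrichment of a peak that reached within 2 kb of its start site. Fold enrichment, as the authors deposited it, is the fragment pileup at the summit over the sample's background after 1 is added to both, and 0 stands for no interval listed. The acetylation of Acrv1 and Spaca3 was higher in RS, and that of Zpbp2 and Dpy19l2 was lower, at an adjusted p of at most 0.05 in limma on log2(fold enrichment + 1). Spam1 was also past this threshold, but it had no interval in PS and entered the test only through its RS samples, so its direction was fixed by the filter and its call supports nothing by itself. Of all 13699 genes with a peak in at least 2 samples, 5.23% were called higher and 15.8% lower. The median difference over all of these genes was -0.43 on the log2 scale, so most start sites had a lower fold enrichment in RS, and it was 0.47 over the 10 genes. When each sample was centred on its median, 17.3% of all genes were called higher and 17.0% lower, and 6 of the 10 genes were higher (Spam1 among them) and 2 lower.

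**Figure D2:**
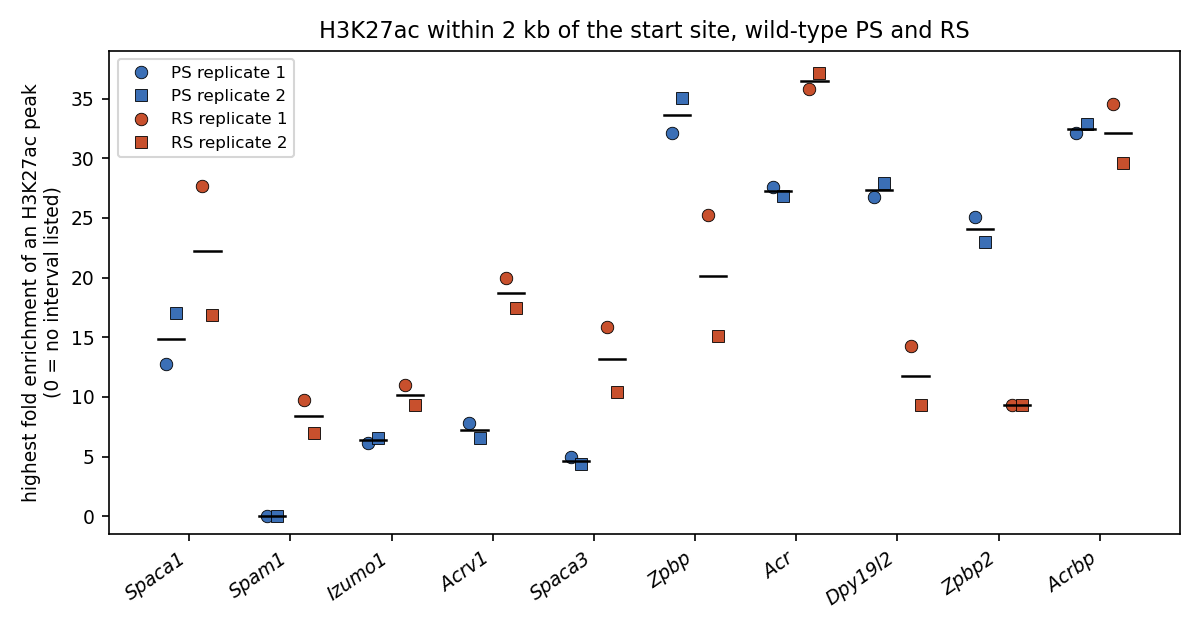
Highest H3K27ac fold enrichment within 2 kb of the start site of each gene in the 4 wild-type samples, genes in the order of their RNA change, with PS in blue, RS in orange and a line at the mean of each pair. Spam1 has no interval in either PS sample, and the RS samples of Zpbp, Dpy19l2 and Zpbp2 stand below their PS samples.

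Spam1 had no interval in either PS sample, in or near the gene, and fold enrichments of 9.76 and 6.97 in RS. Its difference was 3.21 on the log2(fold enrichment + 1) scale with PS at 0, and 1.11 with PS at the lowest fold enrichment listed; these values are a description. The RS intervals cover its start site, from base -505 to base 712 in replicate 1 and from base -14 to base 339 in replicate 2. Its RNA was also the lowest of the 10 in PS. Acrv1 had 7.82 and 6.58 in PS and 19.9 and 17.4 in RS, a difference of 1.26 ± 0.20 on the log2(fold enrichment + 1) scale (SE, n = 2 per stage; limma, adjusted p = 0.0226). Spaca3 had 4.94 and 4.38 in PS, in short separate intervals, and 15.9 and 10.4 in RS (1.30 ± 0.29; limma, adjusted p = 0.0455). This last call was lost in 9 of 15 alternatives. In Acrv1 and Spaca3 both RS samples stood above both PS samples, as they did in 14.6% of all genes tested. For Spam1 this order was fixed by the filter.

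Acrv1 shares its promoter with 1700027I24Rik, a gene on the opposite strand whose start site is 31 bases away. The H3K27ac at this place cannot be assigned to Acrv1 alone. 1700027I24Rik had 10 and 10 reads in PS and 48 and 42 in RS, against 216 or more for Acrv1, and the library preparation does not keep the strand.

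Spaca1 and Izumo1, whose RNA rose as much, were not called in H3K27ac. Izumo1 had fold enrichments of 6.17 and 6.58 in PS and 10.99 and 9.29 in RS, with both RS samples above both PS samples (0.59 ± 0.22; limma, adjusted p = 0.127). Spaca1 had 12.8 and 17.0 in PS and 27.7 and 16.8 in RS, and its RS replicate 2 fell within the PS range (0.52 ± 0.30; limma, adjusted p = 0.247). After centring on the sample medians both were called higher, at 0.99 (adjusted p = 0.0138) and 0.92 (adjusted p = 0.00713) in limma. The 5 genes whose RNA rose all had a higher mean H3K27ac in RS, with Acrv1 and Spaca3 called and Spam1 placed by the filter.

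Zpbp2 and Dpy19l2 showed the reverse at their promoters while their RNA levels overlapped between the stages. Lower acetylation was also called in 15.8% of all genes tested, and in 16.3% of the genes with no call in RNA. Both RS samples stood below both PS samples in 58.1% of all genes tested. Zpbp2 had 25.1 and 23.0 in PS and 9.36 and 9.29 in RS, a difference of -1.28 ± 0.16 (limma, adjusted p = 0.0154). Dpy19l2 had 26.8 and 28.0 in PS and 14.2 and 9.29 in RS, a difference of -1.18 ± 0.24 (limma, adjusted p = 0.0375). Both remained lower after centring on the sample medians, at -0.88 (limma, adjusted p = 0.0103) and -0.78 (limma, adjusted p = 0.00449). Zpbp had 32.1 and 35.1 in PS and 25.2 and 15.1 in RS (-0.75 ± 0.28; limma, adjusted p = 0.12), with RS below PS in both samples but no call.

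Acr and Acrbp carried strong H3K27ac in both stages. Acr had 27.6 and 26.9 in PS and 35.8 and 37.2 in RS (0.41 ± 0.13; limma, adjusted p = 0.0921), and it was called higher after centring, at 0.80 (limma, adjusted p = 0.0137). Acrbp had 32.1 and 32.9 in PS and 34.6 and 29.6 in RS (-0.02 ± 0.15; limma, adjusted p = 0.934), and its sign turned to 0.37 after centring, without a call. Over the 10 genes, 5 had both RS samples above both PS samples in fold enrichment, Spam1 through the filter among them, and 3 had them below, where 14.6% of all genes tested were above and 58.1% below.

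The H3K27ac calls rest on few samples. When PS replicate 1 or PS replicate 2 was left out, 0 of the 10 genes were called in limma, with 3 of them at an unadjusted p under 0.05 each time. Without RS replicate 1 there were 5 (Zpbp in place of Spaca3) and without RS replicate 2 there was 1 (Spam1). With no filter on genes, 0 genes of all 23343 were called, with 5407 at an unadjusted p under 0.05, 6 of the 10 among them. The direction of the called differences was the same in every alternative run that kept the gene.

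The length of the acetylated region was a further measure. Within 2 kb of the start site, 8 of the 10 genes (Spam1, with no base covered in PS, among them) had more bases inside intervals in both RS samples than in both PS samples, and Zpbp2 and Dpy19l2 did not, against 27.4% of all genes tested. The same 8 genes were found when each sample was limited to its 41095 strongest intervals, against 26.8% of all. Spaca3 had 735 and 479 bases covered in PS and 3633 and 2581 in RS. Zpbp had 1881 and 1560 in PS and 3828 and 3235 in RS, so the region widened in RS while the summit was lower. Acrv1 had 1515 and 2251 in PS and 4001 and 3674 in RS, where 4001 bases is the whole window. Acr, with 3050 and 3925 in PS, and Acrbp, with 3925 and 3322, filled this window in both RS samples. Acr in PS replicate 2 and Acrbp in PS replicate 1 were already close to its limit, at 3925 bases. The differences of both genes are bounded by the window. Zpbp2 had 1142 and 1194 in PS and 1468 and 752 in RS.

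**Figure D3:**
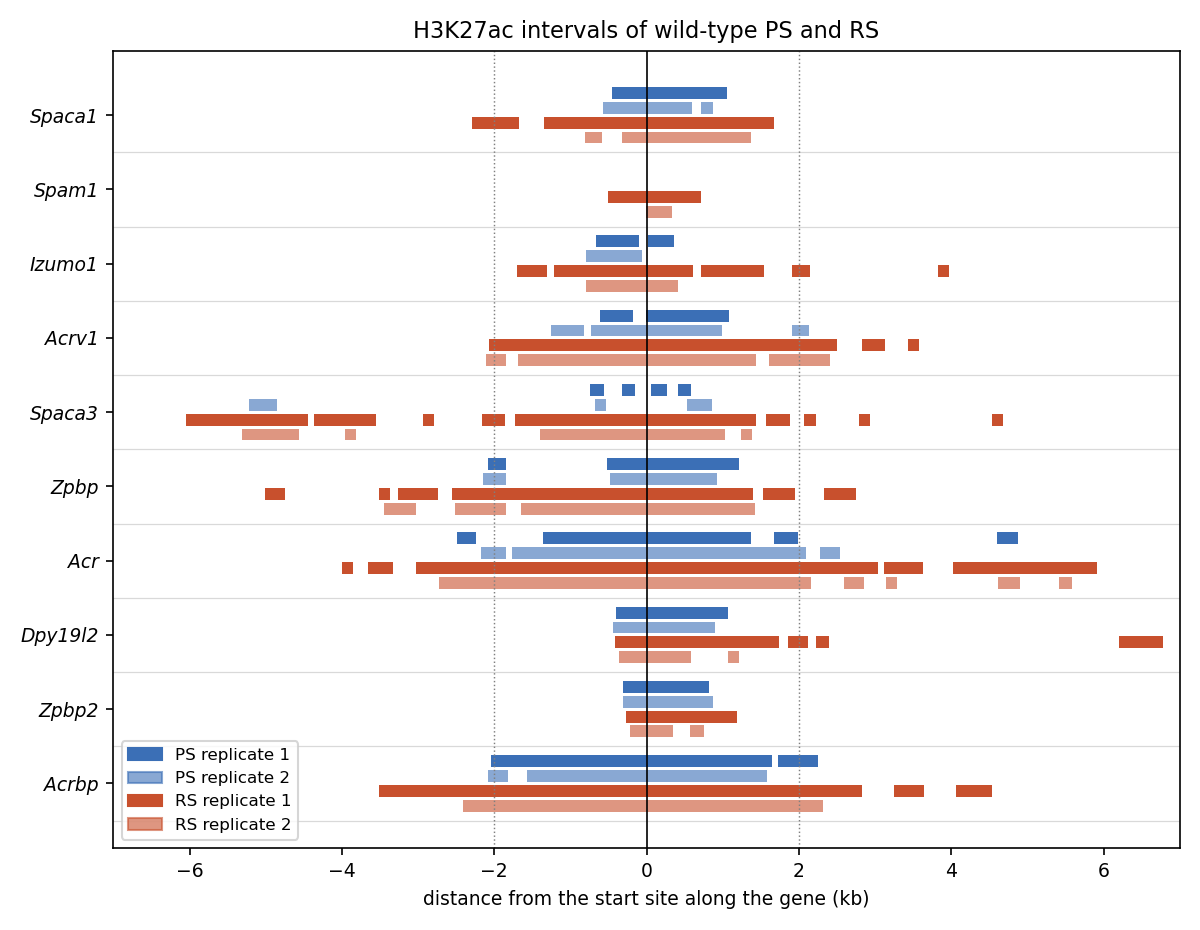
H3K27ac intervals around the start site of each gene in the 4 wild-type samples, by distance along the gene in kb, with dotted lines at 2 kb on either side and paler bars for replicate 2. The intervals of Spaca3 and Zpbp reach farther from the start site in both RS samples than in both PS samples, and Spam1 has bars in RS only.

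Counting every interval assigned to the 10 genes by the authors or within 2 kb of a start site, there were 19 and 18 in PS and 48 and 27 in RS. They made up 0.0462% and 0.0364% of all intervals in PS and 0.0641% and 0.0589% in RS. Most of the difference lay away from the start sites, with 2 and 2 intervals beyond 2 kb in PS and 30 and 10 in RS. RS replicate 1 also had the most intervals of all samples. Distal intervals found in both RS samples lay in or before 4 genes, Acr, Spaca3, Zpbp and Dpy19l2. In Dpy19l2, 2 intronic regions were marked in both RS samples and in neither PS sample. The first, chr9:24686147-24687075, starts 9218 bases into the gene and had fold enrichments of 7.32 and 5.22. The second, chr9:24622217-24623109, starts 73184 bases into the gene and had 6.51 and 5.22. Thus the promoter of Dpy19l2 had a lower fold enrichment in RS while these intronic intervals were listed in RS only. Before Zpbp, chr11:11465152-11465677 had 5.70 and 5.81 in RS and no interval in PS, and before Spaca3, chr11:80854022-80854838 had 4.48 and 4.06 in RS and none in PS. These values were near the lowest fold enrichment listed, which was 2.85 to 3.48 over the 4 samples, and no test was run on them.

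RNA in dKO and H3K27ac in wild-type are set side by side, as they were measured in different mice. The 5 genes called higher in RNA had a median H3K27ac difference of 1.26 (1.11 with Spam1 at the lowest fold enrichment listed in PS) and the 5 not called had a median of -0.75, on the log2(fold enrichment + 1) scale. Over all genes measured in both assays, 16.4% of the 3328 called higher in RNA were called higher in H3K27ac and 6.64% lower. Of the 5365 genes with no call in RNA, 16.3% were called lower in H3K27ac, as Zpbp2 and Dpy19l2 were, and 0.783% higher.

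**Figure D4:**
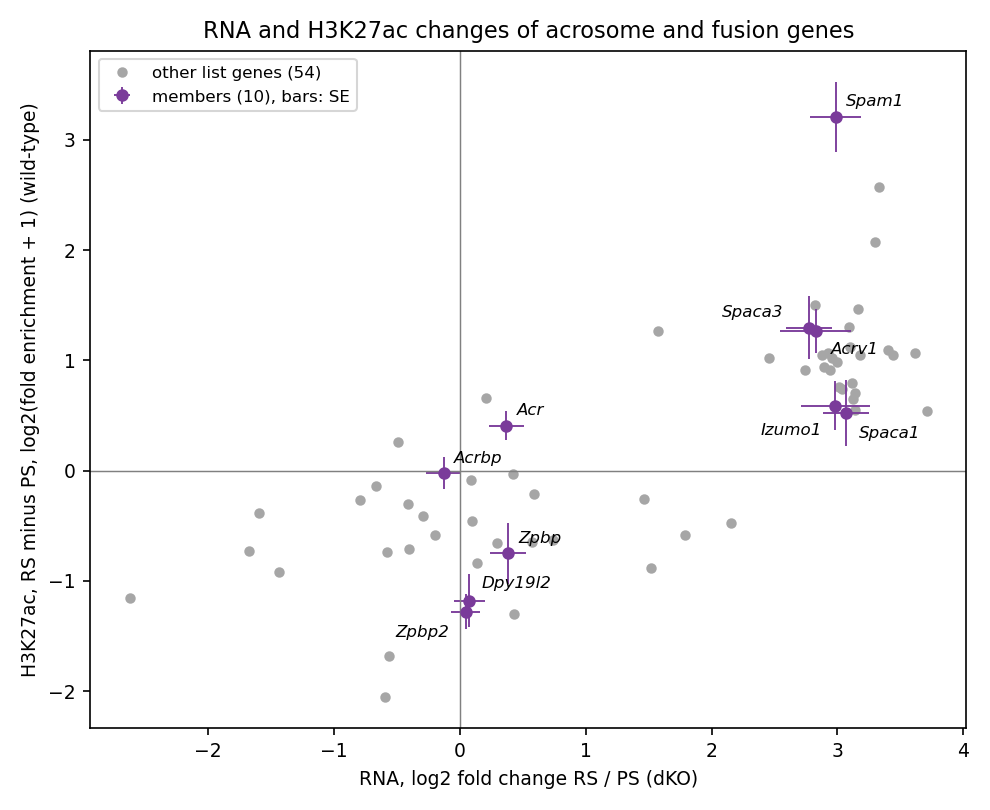
Log2 fold change of RNA between dKO RS and PS against the H3K27ac difference between wild-type RS and PS, with the 10 genes in purple (bars: SE) and 54 other genes of the acrosome and fusion list in grey. Spaca1, Spam1, Izumo1, Acrv1 and Spaca3 lie in the upper right, Zpbp2 and Dpy19l2 lie near no RNA change and below 0 in H3K27ac.

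A wider list of 74 genes of the acrosome and of fertilization, the 10 included, shows how the 10 compare with other genes of this kind. Of these, 71 had a row in the gene tables (Hyalp1, Spaca6 and Dcst2 were not analysed) and 68 passed the filter on low counts. In RNA 38 were called higher in RS, 7 lower and 23 not, with a median log2 fold change of 1.68, where 30.4% of all 14647 genes tested were called higher and 27.6% lower, with a median of 0.01. Without the 10 genes the counts were 33 higher and 7 lower of 58. Of the genes of sperm-egg fusion, 8 of 9 rose, with Izumo4 not called. Of the acrosomal matrix and membrane, 12 of 22 rose and 2 fell, and of acrosome biogenesis and anchoring, 11 of 22 rose and 4 fell. Of acrosomal exocytosis 3 of 9 rose and 1 fell, with Plcz1, which acts in the egg, listed among the 3. Of the endoplasmic reticulum proteins that mature fertilization factors 4 of 6 rose and 0 fell. The share that rose in acrosomal exocytosis is close to the 30.4% of all genes, and no list was tested as a set. The 10 genes all lie on autosomes, while the wider list was not limited to autosomes.

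Outside the 10 genes, the list genes with the largest rise were Cd46, Actrt2, Plcz1, Fam71f1 and Actrt1. Cd46, a complement regulator found on the acrosomal membrane in the mouse, had 4 and 12 reads in PS and 147 and 92 in RS (log2 fold change 3.71 ± 0.44; edgeR, adjusted p = 0.000139). Actrt2, an actin-related protein of the sperm head, had 26.0 and 34.0 RPKM in PS and 380.2 and 334.9 RPKM in RS (3.61 ± 0.18; edgeR, adjusted p = 3.31e-06). Plcz1, the sperm phospholipase that sets off calcium waves in the egg, had 11.6 and 14.3 RPKM in PS and 135.5 and 138.9 RPKM in RS (3.44 ± 0.16; edgeR, adjusted p = 3.29e-06). Fam71f1 and Actrt1 rose by 3.40 ± 0.21 and 3.36 ± 0.25 on the log2 scale. The changes of all genes named here, and of further list genes, were larger than the largest among the 10 genes, 3.07 for Spaca1.

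Among the list genes with the largest fall were Gopc, Tex101, Rab2a and Vps54, of which Gopc, Rab2a and Vps54 act in transport at the Golgi apparatus. Gopc, a PDZ protein of the Golgi apparatus, had 24.04 and 20.5 RPKM in PS and 3.21 and 3.88 RPKM in RS (-2.62 ± 0.16; edgeR, adjusted p = 5.64e-06). Rab2a, a small GTPase of the Golgi apparatus, had 50.1 and 44.0 RPKM in PS and 16.2 and 17.7 RPKM in RS (-1.43 ± 0.14; edgeR, adjusted p = 4.51e-05). On the log2 scale Tex101 fell by 1.60 and Vps54 fell by 0.79. Tex101 is also in the list of PS markers.

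In H3K27ac, 64 genes of the wider list were tested, of which 15 were called higher in RS and 7 lower, against 5.23% and 15.8% of all genes, with a median difference of 0.47 against -0.43 for all genes. Among the 15, Spam1 and Cylc1 had no interval in either PS sample. These genes entered the test only through RS, so their direction was fixed by the filter. Without the 10 genes there were 12 higher, Cylc1 through the filter among them, and 5 lower of 54. After centring on the sample medians the counts over the 64 genes were 34 and 7, against 17.3% and 17.0% of all genes. Of the fusion genes, 4 of 9 were higher and 0 lower. Of biogenesis and anchoring, 4 of 20 were higher (Cylc1 through the filter among them) and 3 lower, the last being close to the 15.8% of all genes. Among the named genes, Actrt2 had 11.9 and 9.87 in PS and 25.6 and 22.1 in RS (1.06 ± 0.18; limma, adjusted p = 0.0275). Gopc had 26.8 and 33.4 in PS and 14.2 and 11.6 in RS (-1.16 ± 0.20; limma, adjusted p = 0.0265). Plcz1 and Capza3, a capping protein of sperm actin, start 108 bases apart on opposite strands and share their H3K27ac peak, which had 9.05 and 10.4 in PS and 22.8 and 19.7 in RS. Both genes are among the 15, so this peak was counted for each of them.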

How the data were processed

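Samples were grouped by the labels into H3K27ac (wild-type) and RNA (dKO) of each stage, 2 replicates per group. The 10 genes and all lists were chosen with earlier results of these data known. For RNA, the authors amplified cDNA without keeping the strand, aligned reads to mm10 with STAR (2.4.2a, up to 2 mismatches, unique reads) and deposited expected counts, estimated per RefSeq transcript, already whole numbers, and RPKM, normalized by the authors for length and depth. For H3K27ac, reads were aligned with Bowtie (1.1.1 per the labels) and peaks called per sample with MACS2 (2.1.0.20140616); the paper's methods give other versions. The deposited lists hold the pileup signal, the fold enrichment ratio over 1 background constant per sample (0.723 to 1.46 fragments) and -log10 p and q values. Read totals are not in these lists.

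Counts were summed per gene and tested with edgeR (4.0.16) with TMM factors; a gene entered with 10 or more counts in 2 or more samples. H3K27ac was tested with limma (3.58.1, trend) on log2(fold enrichment + 1), for genes with a peak in at least 2 of the 4 samples; a peak overlapping the 2 kb on either side of a start site took the value of its strongest summit. P-values were adjusted by Benjamini-Hochberg over all genes tested, and the SE of an edgeR change is its size over the square root of F. P-values measure only the spread between these samples, and 2 against 2 cannot reach an exact permutation p under 0.333. Replicates differed beyond counting noise (chi-square per degree of freedom 12.1 for PS and 7.33 for RS). All 10 genes were named. Of the wider list, the 5 called genes with the largest RNA change in each direction were named, except 1 that is not reported here, as were a neighbour sharing a described peak and, after their values were seen, Capza3 and Izumo4. Alternatives covered filters, normalization, DESeq2 (1.42.0), pseudocounts, windows, peak thresholds, centring, the replicate block and leaving out each sample; summits within 2 kb and equal numbers of intervals were added after seeing the data. Both fits were run on simulated data with planted changes. For H3K27ac these were larger than the differences of Acrv1, Spaca3, Zpbp2 and Dpy19l2, and no gene was given a missing peak. That run is thus no measure of calls at those sizes or of genes without a peak. R 4.3.3 and Python 3.11.15 (pandas 2.3.3, matplotlib 3.10.9) were used.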

Additional observations from a re-analysis of the deposited data

How the results depend on the processing

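In RNA, the 5 calls and the 0 falls among the 10 genes were the same in 11 of the 12 alternatives, and without RS replicate 1 Zpbp was called as well (5 to 6 calls when a sample was left out). Acrbp and Zpbp2, which were not called, changed sign: Acrbp was 0.025 with a mean of at least 50 counts and -0.27 to 0.083 when a sample was left out, and Zpbp2 was -0.022 with limma on log2(RPKM + 1) or log2(RPKM + 0.1) and -0.046 to 0.16 when a sample was left out. In H3K27ac, 3 genes (Spam1 through the filter) were called higher and 2 lower, 5 in all. After centring on the sample medians these were 6, 2 and 8, with Acrbp at 0.37, and the wider list had 34 higher and 41 calls in all. With no peak set to the lowest fold enrichment listed, the list had 29 higher, 15 lower and 44 in all, and with a peak required in all 4 samples 26, 16 and 42 (main counts 15, 7 and 22). In the main counts Spam1 and Cylc1 were higher through the filter. With no filter on genes, 0 of the 10 genes and 0 of the list were called in either direction by limma, with 6 of the 10 at an unadjusted p under 0.05; no other tool was run. Leaving out a sample gave 0 to 2 of the 10 genes higher, 0 to 3 lower and 0 to 5 in all, 0 to 6, 0 to 13 and 0 to 19 over the list, and -0.13 to 0.087 for Acrbp. The Spaca3 call was lost in 9 of 15 alternatives, and the other calls in 3 or 4. Over all 13699 genes the counts of 717 higher and 2163 lower became 2372 and 2331 with centring, 1234 and 4750 with the lowest fold enrichment, 943 and 3876 of 11394 genes with a peak in all 4, and 25 to 530 and 476 to 4240 when a sample was left out. The causes were not tested. The replicate numbers are shared across stages, and the small-scale method can take PS and RS of the dKO from a single male, but it is not stated that equal numbers mark the same mouse: replicate differences of PS and RS correlated at r = 0.19 across genes in RNA and 0.0026 in H3K27ac, and with 2 pairs the pairing could not be settled. With the replicate block, the same 5 RNA calls were made, and in H3K27ac 2 of the 10 genes were higher and 2 lower (Spaca3 lost, adjusted p = 0.0622) and 9 of the list were higher. The read totals of H3K27ac are unknown, so the depth behind its values is not stated.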

Other observations

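Relatives of the 10 genes that are on none of the lists were looked up after the values had been seen, and no test is given for them. Zp3r, an acrosomal matrix protein that binds the egg coat, had 8.15 and 14.5 RPKM in PS and 89.6 and 86.2 RPKM in RS, with both RS samples above both PS samples as in Spam1 and Acrv1. Hyal6, a testis hyaluronidase of the same family as Spam1, had 28.9 and 25.9 RPKM in PS and 30.2 and 34.9 RPKM in RS. It was thus more abundant than Spam1 in both PS samples, where Spam1 had 3.93 and 5.07 RPKM, while in RS their samples overlapped. Hyal2 had 5.08 and 3.41 RPKM in PS and 3.36 and 2.94 RPKM in RS. Hyal4 had 9 to 29 reads in each sample, and Hyal1 and Hyal3 had 1 to 16. The paralog Dpy19l1 had 21.6 and 19.1 RPKM in PS and 16.3 and 19.7 RPKM in RS, below Dpy19l2 in every sample, and Dpy19l3 and Dpy19l4 had 0.176 to 2.87 RPKM. Zp1, Zp2 and Zp3, which form the egg coat that Zpbp and Zpbp2 bind, had 0 to 4 reads in each sample.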
